A study of Mus musculus with 6 samples.

Results

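The S100A genes described here are 9 of the 21929 genes in the table: S100a1, S100a4, S100a6, S100a7a, S100a10, S100a11, S100a13, S100a14 and S100a16, each found by its symbol. They were selected on their FPKM values in these same 6 libraries, so their differences between the groups are a description and carry no test. The table holds 18 S100 genes in all. The libraries come from L929 cells, a mouse fibroblast line, kept in co-culture with cells that the labels name MFCSTCL, an abbreviation they do not explain. The 3 Biotin-positive libraries are labelled as L929 cells that had interacted with MFCSTCL cells, and the 3 Biotin-negative libraries as L929 cells that had not interacted with tumour cells. All 6 share the co-culture and 1 batch label, and the labels do not say how biotin reached the cells or whether each library had its own culture. The p-values below therefore reflect library-to-library spread and may hold technical variation alone. Values are FPKM, a read density scaled for gene length and library size, and ± is the SD over 3 libraries. Log2 differences are Biotin-positive minus Biotin-negative values of log2(FPKM + 1), where the added 1 shrinks the differences of scarce genes.

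S100 proteins are small dimeric proteins of vertebrates with a pair of EF-hands, the helix-loop-helix folds that hold calcium. On binding calcium most of them expose a hydrophobic face that grips partner proteins such as annexins, nonmuscle myosin and co-chaperones, and several also leave the cell and act on receptors such as RAGE. In fibroblasts they are best known through S100A4, once named fibroblast-specific protein 1. Most S100 genes of the mouse lie side by side on chromosome 3, in a cluster that also borders genes of the outer epidermis.

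Promoters are shown for the 3 members with the widest positive differences among those matched to RefSeq, for S100a4, the most abundant member in Biotin-negative cells, and for S100a16, whose level was alike in both groups. RefSeq promoters (GRCm38.p6) matched 7 of the 9 members, all but S100a10 and S100a14. Each line gives the 250 bases before the start of transcription that RefSeq annotates, 5′ to 3′, and capitals mark 3 motifs searched on both strands: TGANTCA, the AP-1 motif, GGAATG, the TEAD motif, and TATAAA, the TATA box.
S100a7a (+ strand, chr3:90654052-90654301): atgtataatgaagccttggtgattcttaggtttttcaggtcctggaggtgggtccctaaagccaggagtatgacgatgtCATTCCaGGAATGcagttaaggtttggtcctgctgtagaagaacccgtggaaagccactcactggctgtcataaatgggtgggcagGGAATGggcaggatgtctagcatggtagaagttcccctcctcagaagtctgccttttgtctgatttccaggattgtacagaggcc
S100a11 (+ strand, chr3:93520246-93520495): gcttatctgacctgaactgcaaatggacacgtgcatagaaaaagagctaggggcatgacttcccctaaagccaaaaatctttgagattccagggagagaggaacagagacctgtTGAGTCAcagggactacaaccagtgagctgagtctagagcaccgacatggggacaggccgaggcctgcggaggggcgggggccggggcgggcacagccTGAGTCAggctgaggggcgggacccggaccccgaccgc
S100a6 (+ strand, chr3:90612644-90612893): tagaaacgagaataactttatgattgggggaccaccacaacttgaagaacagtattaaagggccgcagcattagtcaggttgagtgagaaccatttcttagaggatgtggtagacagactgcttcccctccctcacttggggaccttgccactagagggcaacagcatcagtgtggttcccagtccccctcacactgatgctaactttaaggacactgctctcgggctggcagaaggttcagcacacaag
S100a4 (+ strand, chr3:90603520-90603769): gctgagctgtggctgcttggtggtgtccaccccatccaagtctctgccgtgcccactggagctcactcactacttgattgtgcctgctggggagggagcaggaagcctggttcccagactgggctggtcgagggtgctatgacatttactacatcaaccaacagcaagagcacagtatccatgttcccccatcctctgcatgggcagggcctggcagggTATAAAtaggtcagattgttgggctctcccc
S100a16 (+ strand, chr3:90537004-90537253): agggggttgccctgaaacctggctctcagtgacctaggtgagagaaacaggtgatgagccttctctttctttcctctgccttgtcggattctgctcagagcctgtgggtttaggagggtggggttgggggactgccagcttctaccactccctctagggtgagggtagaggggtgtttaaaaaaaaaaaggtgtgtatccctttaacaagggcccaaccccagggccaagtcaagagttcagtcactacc
The start in RefSeq can differ from the gene start in the expression table. For S100a7a the RefSeq start lies downstream, so all 250 bases of its window fall within the gene span of the table, while 8 bases do so for S100a11, 12 for S100a6 and 0 for S100a4 and the printed S100a16 window. S100a7a held 3 TEAD matches, at 171, 164 and 85 bases before the RefSeq start and thus inside the gene span of the table, of which the first 2 lie on opposite strands with 1 base between them, and S100a11 held 2 AP-1 matches, 136 and 38 bases before the RefSeq start. Over all 32851 promoter windows of this length, 12.64% held at least 1 TEAD match and 0.091% at least 3, while 6.75% held an AP-1 match and 0.34% at least 2. The TATA box of S100a4, 31 bases before the start, was the only such match in the members' windows, and the motif stood in 12.37% of all windows. No TEAD, AP-1 or TATA match lay in the windows of S100a6, S100a1 and S100a13. S100a16 has a second annotated start, whose window held 1 AP-1 match. These matches are letters found in a window and were not tested as binding sites.

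The 4 most abundant members, S100a11, S100a6, S100a4 and S100a10, were all higher in Biotin-positive cells. S100a11, which binds annexin A1 and takes part in membrane repair and keratinocyte growth control, read 1185, 1172 and 1181 FPKM in the Biotin-positive libraries, against 257, 261 and 269 FPKM in the Biotin-negative libraries. The libraries of a group lay within a few percent of each other, and the means of 1179 ± 6.83 and 262 ± 6.19 FPKM gave a 4.49-fold ratio. S100a6, calcyclin, which is induced in proliferating cells and binds the ubiquitin-ligase adaptor CacyBP, read 772, 820.1 and 799 FPKM in Biotin-positive libraries and 283, 302 and 322 FPKM in Biotin-negative libraries, 2.64-fold. S100a10, also called p11, whose EF-hands no longer bind calcium and which pairs with annexin A2 at the membrane, read 615, 661 and 601 FPKM in Biotin-positive libraries and 245, 255 and 263 FPKM in Biotin-negative libraries, 2.46-fold. In none of these genes did a Biotin-positive library come near the Biotin-negative range. S100a4, the metastasin that loosens nonmuscle myosin filaments, read 694, 765 and 708 FPKM in Biotin-positive libraries and 521, 548 and 549 FPKM in Biotin-negative libraries. Its ratio of 1.34 was the narrowest of the 4, though the groups did not overlap. Fewer cells of a type and less RNA per cell cannot be told apart in such bulk libraries.

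**Figure D1:**
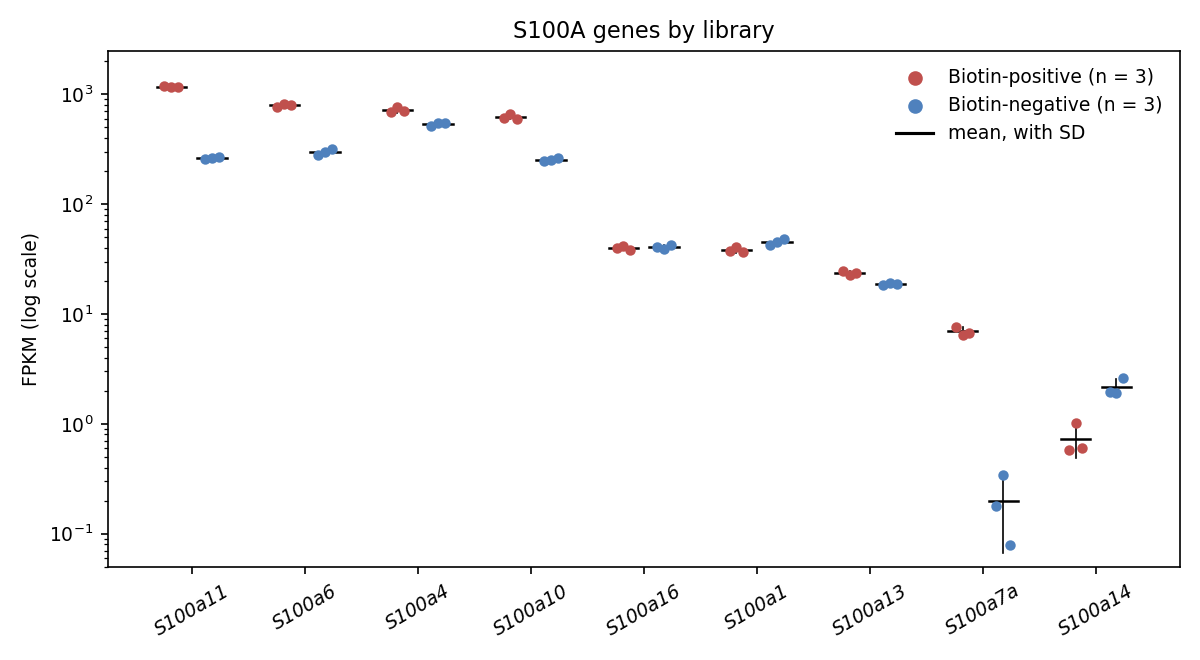
FPKM of each S100A gene in each library on a log axis, Biotin-positive to the left of Biotin-negative, with the mean and SD of 3 libraries. The groups stand apart for every member except S100a16, and S100a7a shows the widest gap, at 6.93 and 0.199 FPKM.

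The level of 2 of these genes could be shared with copies. Of the 511 bases of the S100a11 transcript, 58.1% match annotated processed pseudogenes at 98% identity or more, and 60.6% of the S100a4 transcript lies in the overlapping gene Gm42674, so both levels are uncertain. Gm42674 read 0, 0.119 and 0 FPKM in Biotin-positive libraries and 0.536, 0.827 and 2.78 FPKM in Biotin-negative libraries. The other 7 members had no such stretch.

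The summed level of the 9 genes was 3375, 3530.3 and 3395 FPKM in Biotin-positive libraries, against 1409.7, 1472 and 1515 FPKM in Biotin-negative libraries, a ratio of 2.34. This is 0.969 ± 0.0220% of all FPKM in Biotin-positive libraries and 0.432 ± 0.0162% in Biotin-negative libraries. The 4 abundant members made up 96.7 to 96.9% of the sum in Biotin-positive libraries and 92.6 to 92.8% in Biotin-negative libraries. Their order differed between the groups. S100a11 was the largest part in Biotin-positive libraries, with 34.4 ± 1.03% of the sum, and held 17.9 ± 0.283% in Biotin-negative libraries. S100a4 held 21.0 ± 0.576% in Biotin-positive libraries and was the largest part, with 36.8 ± 0.510%, in Biotin-negative libraries. The parts of S100a6 and S100a10 were closer, at 23.2 ± 0.342 and 18.2 ± 0.515% in Biotin-positive libraries and 20.6 ± 0.596 and 17.4 ± 0.0295% in Biotin-negative libraries. Among all genes of a library, S100a11 ranked 15 or 16 in Biotin-positive libraries and 172 to 180 in Biotin-negative libraries, while S100a4 ranked 48 to 57 in Biotin-positive libraries and 72 to 79 in Biotin-negative libraries.

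**Figure D2:**
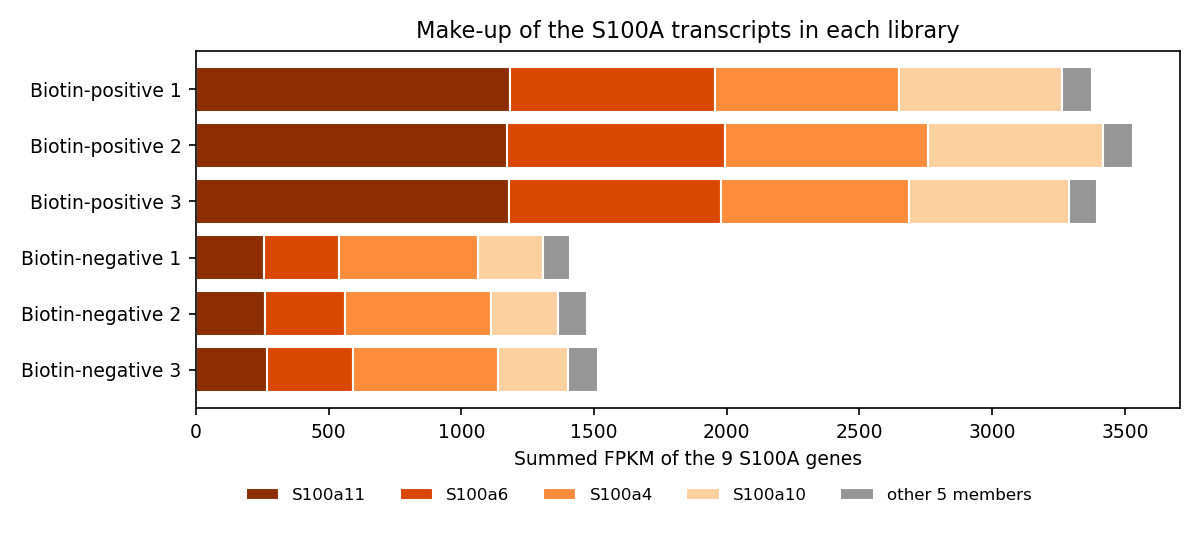
Summed FPKM of the 9 S100A genes in each library, Biotin-positive libraries above Biotin-negative ones, with 1 colour for each of the 4 abundant members and grey for the other 5. The bars end between 3375 and 3530.3 FPKM in Biotin-positive libraries and between 1409.7 and 1515 FPKM in Biotin-negative libraries, and the S100a11 stretch differs most between the groups.

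Members of middling abundance differed less between the groups. S100a13, which carries FGF1 out of the cell by a route without a signal peptide, read 24.9, 22.4 and 23.8 FPKM in Biotin-positive libraries and 18.3, 19.1 and 18.8 FPKM in Biotin-negative libraries, 1.26-fold. S100a1, a regulator of calcium pumps and release channels in heart and skeletal muscle, read 37.3, 40.7 and 36.6 FPKM in Biotin-positive libraries and 42.5, 44.9 and 48.5 FPKM in Biotin-negative libraries. The 2 genes thus stood on opposite sides, S100a13 higher and S100a1 lower, although they are transcribed away from each other with 42 bases between their annotated starts. The ratio of S100a1 to S100a13 was 1.62 ± 0.171 in Biotin-positive libraries and 2.42 ± 0.141 in Biotin-negative libraries. S100a16, a widely expressed member, read 39.7, 41.7 and 38.1 FPKM in Biotin-positive libraries and 40.6, 39.5 and 42.2 FPKM in Biotin-negative libraries. It is the one member whose groups overlapped, with means of 39.8 ± 1.77 and 40.8 ± 1.34 FPKM.

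The scarcest members went opposite ways. S100a7a, the mouse relative of the skin antimicrobial protein psoriasin, read 7.66, 6.48 and 6.67 FPKM in Biotin-positive libraries and 0.177, 0.341 and 0.0795 FPKM in Biotin-negative libraries. Its log2 difference of 2.73 was the widest of the members, and it passed the filter on low values only through the Biotin-positive libraries. S100a14, a member found mainly in epithelia, read 0.572, 1.02 and 0.607 FPKM in Biotin-positive libraries and 1.93, 1.92 and 2.64 FPKM in Biotin-negative libraries, a log2 difference of -0.87. The groups did not overlap in either gene.

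The 9 members were fitted with limma together with all 11029 genes that had at least 1 FPKM in at least 3 libraries, and all 9 passed this filter. At an adjusted p of 0.05 the fit called 6 members higher, where it called 37.8% of all tested genes, and 2 members lower, where it called 36.1%. Biotin-positive and Biotin-negative values stood fully apart for 8 of the 9 members, and for 76.9% of all tested genes. The median log2 difference was 0.42 over the members and 0.01 over all tested genes. Since the members were selected on this contrast, nothing is read from these counts.

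The other 9 S100 genes of the table were silent or scarce. S100a8 and S100a9, the calprotectin subunits of neutrophils, were listed at 0 in every library, as were S100a7l2, S100g and S100z, while S100a2 and S100a5 stayed under 0.5 FPKM. S100b, best known from glia, fell to 5.26, 4.21 and 4.92 FPKM in Biotin-positive libraries, against 7.20, 7.15 and 7.17 FPKM in Biotin-negative libraries (limma adjusted p = 0.000261). S100a3, a protein of the hair cuticle, rose to 5.54, 6.25 and 5.16 FPKM in Biotin-positive libraries, against 2.28, 3.70 and 0.60 FPKM in Biotin-negative libraries (log2 difference 1.19, SE 0.326, limma adjusted p = 0.00972). Its Biotin-negative libraries were scattered, and without Biotin-negative replicate 3 the log2 difference was 0.76. The call was lost when limma used a robust prior. That same library had the highest Gm42674 level, 2.78 FPKM, and Gm42674 shares exon bases with both S100a3 and S100a4. Whether reads were divided differently between these overlapping genes was not tested.

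The members sit in 2 blocks of chromosome 3 (GRCm38). The first runs over 184.7 kb from S100a1 (90511034 to 90514392) to S100a9 and holds 13 genes, 12 of them S100 genes. Along it the order of the members is S100a1, S100a13, S100a14, S100a16, S100a4, S100a6 and S100a7a. The 4 members at the S100a1 end had log2 differences from -0.87 to 0.32, and the 3 at the other end, S100a4 (90603771 to 90606045), S100a6 (90612882 to 90624181) and S100a7a (90654017 to 90658669), had 0.42, 1.40 and 2.73. Genes other than the members break this order. S100a2 (-0.02) and S100a3 (1.19) lie between S100a16 and S100a4. Gm42674 (-1.08) overlaps S100a3 and S100a4, and S100a5 (-0.09) lies between S100a4 and S100a6. S100a2, Gm42674 and S100a5 did not reach testing. Beyond S100a7a the next genes, S100a8 and S100a9, were listed at 0 in every library. The second block lies 2824.8 kb further on and holds S100a11 (93520488 to 93526287) and S100a10 (93555080 to 93564643), 28.8 kb apart, with log2 differences of 2.16 and 1.29. Of the 60 genes between the blocks, among them Sprr and Lce genes of the cornified envelope, 37 were at 0 in all libraries and 4 reached testing. Of these 4, Crct1 read 14.2, 12.1 and 12.1 FPKM in Biotin-positive libraries and 0, 0 and 0.0901 FPKM in Biotin-negative libraries. Lce1g, a gene of the cornified envelope, read 6.15, 5.13 and 4.71 FPKM in Biotin-positive libraries and 0 FPKM in all Biotin-negative ones. The other 2 differed less. Sprr1a stood lower, at 0.932 ± 0.209 FPKM in Biotin-positive and 1.14 ± 0.256 FPKM in Biotin-negative libraries, and Gm9774 at 2.03 ± 0.244 and 1.40 ± 0.197 FPKM. Chtop, the gene next to S100a1 on the outer side, stood at 83.3 ± 2.68 FPKM in Biotin-positive and 104 ± 2.07 FPKM in Biotin-negative libraries.

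**Figure D3:**
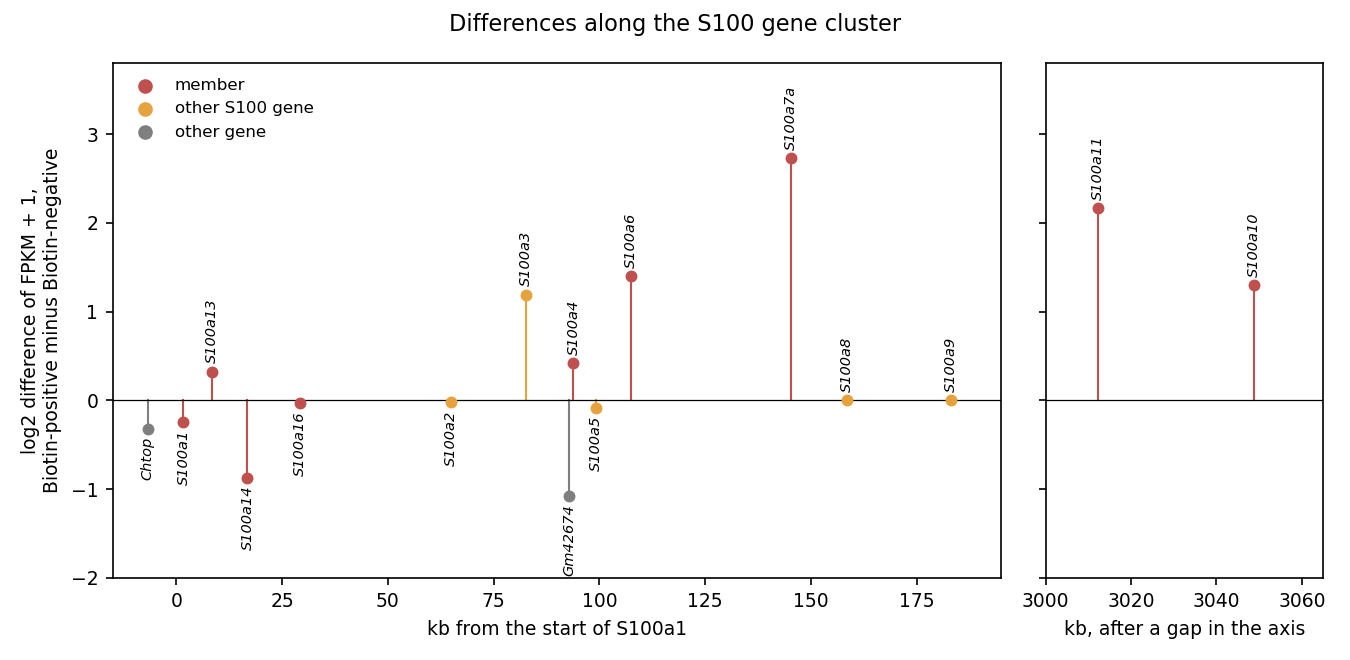
Log2 difference of FPKM + 1, Biotin-positive minus Biotin-negative, of the genes in both S100 blocks against their distance in kb from the start of S100a1, with the 60 genes between the blocks left out by a gap in the axis. The members S100a7a, S100a6, S100a11 and S100a10 lie above 1, as does S100a3, at 1.19. The members near S100a1 stay between -0.87 and 0.32, and Gm42674, at -1.08, is the lowest point. S100a8 and S100a9 lie at 0 because both are listed at 0.

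Annexins A1 and A2, the membrane-binding partners of S100A11 and S100A10, both rose in Biotin-positive cells. Anxa2 read 685, 699.6 and 679 FPKM in Biotin-positive libraries, against 260.2, 252 and 254 FPKM in Biotin-negative libraries (log2 difference 1.42, SE 0.0274, limma adjusted p = 2.73e-09). The proteins S100A10 and annexin A2 form a heterotetramer with equal numbers of each subunit. FPKM measure RNA, so a transcript ratio does not give the ratio of the proteins. The ratio of S100a10 to Anxa2 FPKM was 0.897, 0.945 and 0.884 in Biotin-positive libraries, against 0.942, 1.01 and 1.03 in Biotin-negative libraries. The ratio ranges of the groups overlapped, while S100a10 stood at 2.46 times and Anxa2 at 2.69 times the Biotin-negative level. Anxa1 read 362, 377 and 355 FPKM in Biotin-positive libraries, against 122, 120.4 and 124 FPKM in Biotin-negative libraries (log2 difference 1.57, SE 0.0311, limma adjusted p = 3.11e-09). For this pair the ratio ranges lay apart, and S100a11 stood at 3.24 ± 0.114 times Anxa1 in Biotin-positive libraries and at 2.15 ± 0.0411 times in Biotin-negative libraries. Anxa11, a partner of S100A6, rose to 13.5 ± 2.28 FPKM, against 10.4 ± 0.730 FPKM in Biotin-negative libraries (limma adjusted p = 0.0167). Its Biotin-positive replicate 1 was the highest library, and without it the log2 difference was 0.21 in place of 0.34. Anxa6, which S100A6 and S100A11 also bind, fell to 34.6 ± 0.576 FPKM, against 49.1 ± 1.12 FPKM in Biotin-negative libraries (limma adjusted p = 1.95e-06).

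**Figure D4:**
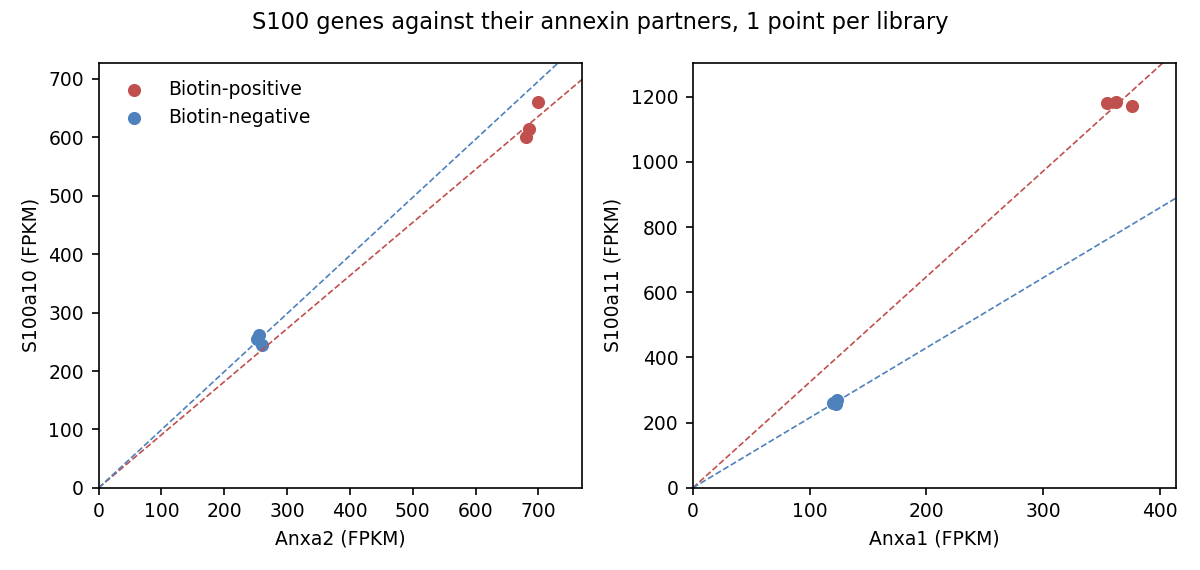
FPKM of S100a10 against Anxa2 and of S100a11 against Anxa1, 1 point per library, with dashed lines at the mean ratio of each group through the origin. The lines of the groups lie close together for S100a10 and Anxa2, at 0.909 and 0.995, and apart for S100a11 and Anxa1, at 3.24 and 2.15, in Biotin-positive and Biotin-negative libraries.

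Of 26 other intracellular partners, 17 reached testing, of which 9 rose, 5 fell and 3 did not pass, where 37.8% of all tested genes were called higher and 36.1% lower (median log2 difference 0.24, against 0.01 over all tested genes). The largest rises were those of Mdm2, the ubiquitin ligase of p53, at 49.9 ± 1.92 FPKM in Biotin-positive and 24.0 ± 0.572 FPKM in Biotin-negative libraries, and of Plat, the tissue plasminogen activator whose substrate plasminogen docks on S100A10, at 13.6 ± 0.431 and 6.30 ± 0.417 FPKM. Next came the co-chaperone gene Fkbp4, at 111 ± 2.46 FPKM in Biotin-positive and 62.1 ± 1.15 FPKM in Biotin-negative libraries, and the scaffold gene Iqgap1, at 64.4 ± 1.41 and 38.6 ± 0.835 FPKM. Cacybp and Myh9 also rose, with log2 differences of 0.44 and 0.52, against 1.40 for S100a6 and 0.42 for S100a4. Other partners on the list did not rise. Trp53 fell, with a log2 difference of -0.13, and Ppfibp1 (-0.08) and Sugt1 (0.04) did not pass. Cacybp, the partner of S100A6, stood at 64.2 ± 1.04 FPKM in Biotin-positive and 46.9 ± 1.53 FPKM in Biotin-negative libraries, and Myh9, the myosin heavy chain bound by S100A4, at 84.5 ± 1.58 and 58.9 ± 2.79 FPKM (limma adjusted p = 4.78e-06 and 4.51e-06). The ratio of S100a6 to Cacybp was 12.4 ± 0.526 in Biotin-positive and 6.45 ± 0.524 in Biotin-negative libraries, while that of S100a4 to Myh9 was 8.55 ± 0.608 and 9.18 ± 0.667, with overlapping ranges. Asic1 and Kcnk3 are ion channels that S100A10 escorts to the cell surface, and both were called lower. Asic1 stood at 8.88 ± 0.382 FPKM in Biotin-positive and 19.2 ± 0.898 FPKM in Biotin-negative libraries (limma adjusted p = 3.55e-07). Kcnk3 stood at 0.594 ± 0.349 FPKM in Biotin-positive and 3.07 ± 0.990 FPKM in Biotin-negative libraries, and it passed the filter on low values only through the Biotin-negative libraries, so its call is given with no p. Atp2a2, the calcium pump that S100A1 stimulates in muscle, fell to 93.1 ± 1.35 FPKM, against 141 ± 1.45 FPKM in Biotin-negative libraries, and the cathepsin gene Ctsb fell to 91.1 ± 3.32 FPKM, against 138 ± 1.16 FPKM. Fgf1, the cargo of S100A13, stayed under 0.5 FPKM in every library and was not tested.

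Of 9 receptors and adaptors for S100 proteins outside the cell, 7 reached testing, of which 1 rose, 3 fell and 3 did not pass (median log2 difference -0.10). Over all tested genes, 37.8% were called higher and 36.1% lower. Mcam, an adhesion molecule that binds S100A8 and S100A9 in human melanoma cells, was the 1 rise, with 11.4, 14.1 and 12.5 FPKM in Biotin-positive libraries, against 0.170, 0.181 and 0.477 FPKM in Biotin-negative libraries (log2 difference 3.43). It passed the filter on low values only through the Biotin-positive libraries, so its call is given with no p. Its ligands S100a8 and S100a9 were at 0 throughout. Alcam, a related adhesion molecule, fell to 22.3 ± 0.667 FPKM, against 46.3 ± 5.18 FPKM in Biotin-negative libraries (limma adjusted p = 2.65e-06). Nptn stood at 124 ± 0.208 FPKM in Biotin-positive and 133 ± 2.04 FPKM in Biotin-negative libraries, and Ly96, a cofactor of TLR4, at 3.54 ± 0.584 and 4.53 ± 0.472 FPKM (limma adjusted p = 0.00661 and 0.0295). The call on Ly96 was lost in 5 of 15 alternative settings. Bsg, the most abundant receptor of the list, at 461 ± 6.30 FPKM in Biotin-positive and 481 ± 16.4 FPKM in Biotin-negative libraries, did not pass, nor did Tlr4 and Myd88. Ager, the gene of RAGE, lay between 0.0698 and 0.260 FPKM in all libraries and was not tested, as was Cd36.

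Other EF-hand genes were compared because they share the calcium-binding fold. Of 24 such genes 19 reached testing, of which 14 rose, 3 fell and 2 did not pass (median log2 difference 0.33). Over all tested genes 37.8% were called higher and 36.1% lower, and 1 of the 14, Tnnc1, passed the filter only through the Biotin-positive libraries. Calm3 and Calm2, which encode the calcium sensor calmodulin, rose, Calm3 to 126 ± 1.65 FPKM, against 79.9 ± 4.00 FPKM in Biotin-negative libraries, and Calm2 to 214 ± 5.21 FPKM, against 177 ± 6.48 FPKM (limma adjusted p = 9.36e-07 and 0.000125). Cib1, an integrin-binding protein, stood at 30.8 ± 1.87 FPKM in Biotin-positive and 15.1 ± 0.502 FPKM in Biotin-negative libraries, Efhd2 at 44.9 ± 0.806 and 24.4 ± 0.240 FPKM, and the calpain small subunit gene Capns1 at 193 ± 8.87 and 117 ± 5.26 FPKM. Rcn3, a reticulocalbin of the endoplasmic reticulum, fell to 13.5 ± 0.978 FPKM, against 36.0 ± 0.912 FPKM in Biotin-negative libraries (limma adjusted p = 8.82e-08), and Hpcal1 and Sdf4 fell less, with log2 differences of -0.24 and -0.16. The call on Sdf4 was lost in 8 of 16 alternative settings. For comparison, Cib1, the largest rise on this list, had a log2 difference of 0.98. Among the members, S100a6, S100a10 and S100a11 had 1.29 to 2.16 and S100a7a had 2.73. S100a1, S100a4, S100a13, S100a14 and S100a16 had -0.87 to 0.42, inside the range of this list, -1.36 to 0.98. The medians were 0.42 over the members, which were selected on this contrast, and 0.33 over this list.

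**Figure D5:**
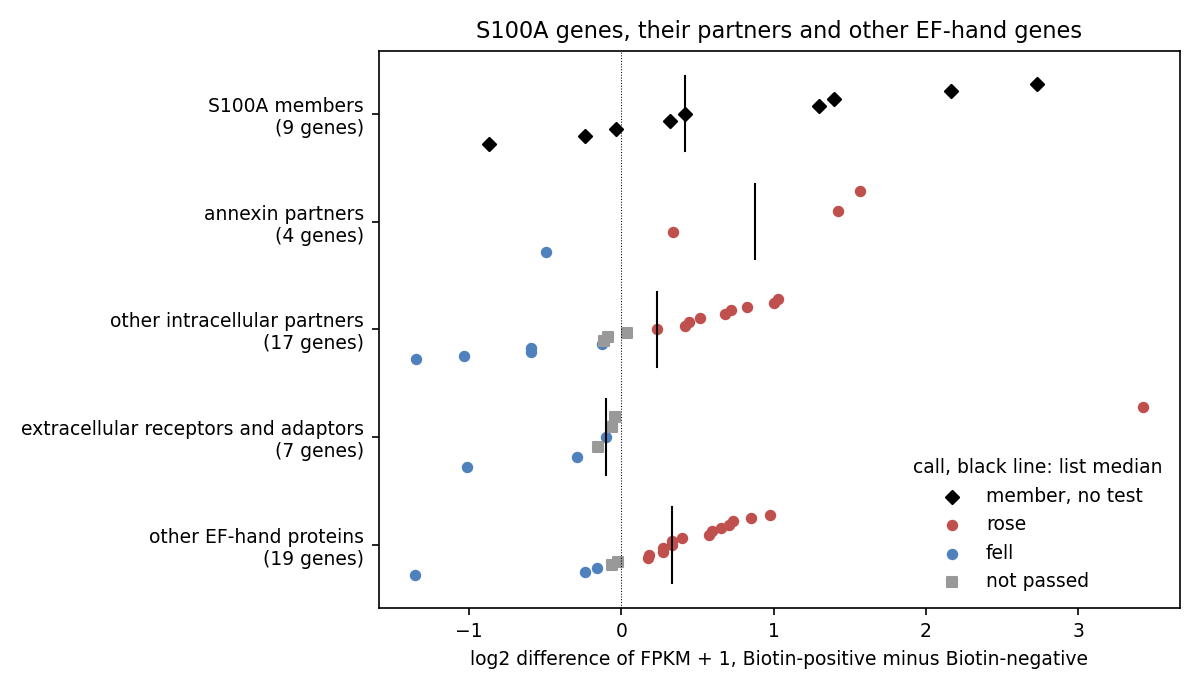
Log2 difference of FPKM + 1, Biotin-positive minus Biotin-negative, for the S100A members (black, no test) and for the tested genes of 4 lists, coloured by their limma call, with a black line at each list's median. The members spread from -0.87 to 2.73, and Mcam, at 3.43, lies beyond every other gene shown.

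The gene outside the family with the nearest levels was found for each member as the smallest Euclidean distance of log2(FPKM + 1) over the 6 libraries. This distance depends on abundance as well as on the difference between the groups. It was Clpp for S100a16 (distance 0.0884), Kpna3 for S100a13 (0.0893), Orc5 for S100a1 (0.16), Atp5b for S100a4 (0.177), Hspa8 for S100a10 (0.199), Nr1h5 for S100a14 (0.343) and Tuba1b for S100a6 (0.378). For S100a11 it was also Tuba1b, at a distance of 1.29, the widest of the 9 distances. For S100a7a the nearest was 3830403N18Rik, a gene of the X chromosome, with 7.61, 6.99 and 6.68 FPKM in Biotin-positive libraries and 0, 0.207 and 0 FPKM in Biotin-negative libraries.

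Markers of other cells were read in the same libraries. Of 25 epithelial markers 2 reached testing, Krt7 at 24.7 ± 1.18 FPKM in Biotin-positive and 0.236 ± 0.0759 FPKM in Biotin-negative libraries and Krt8 at 20.8 ± 0.355 and 0.0362 ± 0.0153 FPKM, both only through the Biotin-positive libraries. The other 23 summed to between 1.70 and 2.24 FPKM in Biotin-positive libraries and between 2.07 and 2.19 FPKM in Biotin-negative libraries. The defining markers Epcam, Cdh1, Krt18, Krt19, Esrp1 and Grhl2 were at most 0.171 FPKM in Biotin-positive and 0.189 FPKM in Biotin-negative libraries, with Cdh1 at 0 in the first group and Epcam at 0 in the other. Of 14 fibroblast markers, 9 fell, 2 rose and 3, Thy1, Dcn and Lum, were too low to test. Among all tested genes, 37.8% were called higher and 36.1% lower. Col1a1, Col1a2, Vim and Pdgfrb were present in all libraries. Summed over the list, fibroblast markers stood at 2249 to 2342 FPKM in Biotin-positive and 4274 to 4583 FPKM in Biotin-negative libraries. Fn1, the gene of fibronectin, carried most of that gap, at 172 ± 4.53 FPKM in Biotin-positive and 2017 ± 84.6 FPKM in Biotin-negative libraries. Without it the list summed to 2075 to 2167 FPKM in Biotin-positive and 2331 to 2474 FPKM in Biotin-negative libraries. In that sum the rise of Vim offset falls of other markers. Col6a1 fell to 24.6 ± 0.667 FPKM, against 300 ± 8.55 FPKM in Biotin-negative libraries. Col3a1 fell to 58.2 ± 0.943 FPKM, against 208 ± 5.94 FPKM, and Sparc to 256 ± 10.6 FPKM, against 523 ± 21.0 FPKM. The 2 markers that rose were Vim and Twist1. Vim stood at 1418 ± 43.5 FPKM in Biotin-positive and 658 ± 14 FPKM in Biotin-negative libraries. Twist1 stood at 6.41 ± 0.443 FPKM in Biotin-positive libraries and was listed at 0 in the Biotin-negative ones. Twist1 passed the filter on low values only through the Biotin-positive libraries, so its call is given with no p. Of 15 leukocyte markers Cd68, Cd14, Lyz2 and Coro1a reached testing, the list summed to 18.8 to 22.9 FPKM in Biotin-positive and 18.8 to 22.4 FPKM in Biotin-negative libraries, and the defining markers Ptprc, Adgre1, Itgam and Cd3e were at most 0.0100 FPKM in Biotin-positive and 0.0354 FPKM in Biotin-negative libraries. Whether the keratin and fibroblast marker differences bear on the S100A differences was not tested. Library sums of FPKM lay between 337771 and 356681, and correlations of log2(FPKM + 1) across tested genes between 0.994 and 0.996 within a group and 0.927 and 0.930 across the groups.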

How the data were processed

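RNA-seq of 3 Biotin-positive and 3 Biotin-negative L929 libraries was analysed. The deposited values are FPKM per gene. Per the submitters' processing notes, cutadapt 1.9.1, HISAT2 2.2.1 and HTSeq 0.6.1 were used with GRCm39. The program that made the FPKM and the strandedness are not given in the sources used here. Of 21887 identifiers shared with GENCODE vM21 (GRCm38), 21687 had the same chromosome, start and end in the deposited table, so its coordinates are given as GRCm38. FPKM hold no read counts, so the depth is unknown and no counting interval is given.

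Values were taken as log2(FPKM + 1), and the 11029 genes that reached 1 FPKM in 3 or more libraries were fitted with limma 3.58.1 in R 4.3.3 (eBayes with a trend, two-sided, Benjamini-Hochberg over all tested genes, threshold 0.05). The fit was also tested on simulated data. Far fewer genes were changed there than were called here, so its error in these data was not measured. Members and lists of partners, receptors, EF-hand genes and markers (134 entries with the members) were chosen with earlier results of these data known. From each list of under 10 genes all tested genes are named, from longer lists up to 4 rises and 4 falls with the largest differences. Every S100 gene, the genes beside or between the members, tested or defining markers and the nearest gene of each member are named too. Cacybp, Myh9, Trp53, Ppfibp1, Sugt1, Fgf1, Calm2, Calm3 and Gm42674 were named after their values were seen. Near-identical transcripts were searched with blastn 2.17.0 in vM21 transcripts, counting alignments of at least 100 bases and 98% identity. The labels do not say whether equal replicate numbers mark paired libraries, and the main fit held no pairing. Alternatives were other pseudocounts (0.1 and 0.5), other filters (none, 5 FPKM), 3 rescalings, other eBayes settings, a replicate term and leaving out each library. Of the genes that the naming rule picks, 2 are not reported here.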

Additional observations from a re-analysis of the deposited data

How the results depend on the processing

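Over 16 alternatives the 9 members kept the sign of their log2 difference, and 6 were called higher in each. Over all tested genes, the count called higher ran from 3420 of 8577 with the 5 FPKM filter to 4846 of 17058 with no filter. S100a14 left the test at a minimum of 5 FPKM, which left 1 member called lower. With an equal FPKM sum per library, 5 receptors and adaptors and 5 other EF-hand genes were called lower, against 3 of each as reported. That scaling called 4502 of all tested genes lower and 3688 higher, against 3985 and 4168 as reported. Quantile normalization also gave 5 EF-hand genes called lower, where 4149 of all tested genes were called lower and 4024 higher. The log2 difference of S100a7a ranged from 2.66 to 4.65, that of S100a14 from -1.47 to -0.77 and that of S100a6 from 1.26 to 1.44, and the values of 4.65 and -1.47 came with the pseudocount of 0.1 FPKM. Quantile normalization gave 0.28 for S100a4, against 0.42 as reported, and -0.22 for Nptn, against -0.10. Without Biotin-positive replicate 1, Sdf4 had -0.09, against -0.16. Mcam and Kcnk3 had 5.17 and -2.30 with the pseudocount of 0.1 FPKM. Of 28 named genes outside the members, 23 had the same call throughout. The exceptions were Ly96 and Sdf4, as given above, S100a3, whose call was lost with a robust prior, and Tlr4 and Bsg, which passed in 3 alternatives each. With the replicate block, 4113 genes were called higher and 3927 lower, against 4168 and 3985 without it. Deviations from the group mean correlated at 0.0371, 0.0120 and 0.0143 between same-numbered libraries of the 2 groups. Between differently numbered ones they correlated at -0.0491 to 0.034. These values do not settle whether the libraries are paired. The block changed no call on a member and left 2 EF-hand genes called lower. Without a known depth, differences of genes near 0 FPKM cannot be given a counting error.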

Other observations

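Within a group the members did not vary evenly over the libraries. Among the Biotin-positive libraries, replicate 2 held the highest value of 6 of the 9 members, S100a1, S100a4, S100a6, S100a10, S100a14 and S100a16, where 29.3% of all tested genes were highest in that library. Among the Biotin-negative libraries, replicate 3 held the highest value of 7 members, the same 6 and S100a11, where 29.4% of all tested genes were highest there. Genes of one cluster on chromosome 3 are not independent of each other, and whether this pattern comes from the libraries or the cells was not tested.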
